A study of Mus musculus with 12 samples.

Results

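Genes for receptors of glutamate, GABA, glycine, acetylcholine and dopamine were followed in ribosome-bound RNA of the early postnatal mouse retina. A gene was included when its symbol named a subunit of an AMPA, kainate, NMDA, delta or metabotropic glutamate receptor (Grm6 left out), a GABA-A or GABA-B receptor, a glycine receptor, a nicotinic or muscarinic acetylcholine receptor or a dopamine receptor, and when its expected counts summed to at least 100 over all libraries. Of 53090 gene rows, 77 matched by name and 67 reached that sum. Of these 67 genes, 64 encode receptors (25 for glutamate, 16 for GABA, 15 for acetylcholine, 4 for glycine and 4 for dopamine). The remaining 3 matched by spelling only, among them Chrna1os and Grin1os, whose names mark transcripts of the strand opposite to Chrna1 and Grin1.

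The 10 genes under the minimum were Chrm4, Chrm5, Chrna9, Chrna10, Chrnd, Chrne, Drd3, Gabra6, Gabrp and Glra4. Glra4 with 97.2 and Chrne with 89 summed counts lay just under it, and Chrna1 with 162 and Drd5 with 214.8 just above. Drd3 had 0 counts in every library.

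The libraries came from retinas of C57BL/6 mice at postnatal day 9 (P9, 6 libraries) and day 3 (P3, 6 libraries). All mice had received tamoxifen on days 1 and 2, which lay further back at P9, so that interval and age cannot be told apart. RNA was recovered by immunoprecipitation through an HA tag on ribosomes, and the labels call the cells retinal pericytes, the mural cells of capillaries. The labels name neither the driver of the tag nor the number of animals behind a library, and input RNA was not analysed here, so enrichment over the whole tissue is unknown. The labels do not say whether each library came from another animal. The p-values therefore measure only the spread between these libraries, part of which may be technical.

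Receptors for transmitters come as ligand-gated channels, which are rings of several subunits whose mixture sets speed, conductance and drug response, and as slower receptors that act through G proteins. During development many neurons replace one subunit of a channel by another. In the retina, spontaneous waves of activity run first through acetylcholine and later through glutamate, while the contacts of bipolar, amacrine and ganglion cells form. Amacrine cells release GABA, glycine, acetylcholine or dopamine, and photoreceptors and bipolar cells release glutamate. Pericytes, too, carry some of these receptors.

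Levels are given as CPM, the counts of a gene per 1000000 counts of its library, after scaling by the trimmed mean of M values (TMM), and 1 CPM stood for 25.8 to 38.5 counts in a library. Library totals ran from 32506999 to 37776172 counts at P9 and from 26839599 to 33514282 counts at P3. All 10 pericyte markers on the list used rose at P9, with a sum of 2690 to 6081.4 CPM in the P9 libraries and 188.1 to 1159.5 CPM in the P3 libraries, and none was at 0. RNA of other retinal cells was present as well. The rod list summed to 6985.2 to 14598.8 CPM at P9, against 1204.8 to 2609.3 CPM at P3, with 10 of 10 genes rising. Of 12 bipolar cell markers 11 rose and 1 fell (2765.7 to 3399.7 CPM at P9, 1321.7 to 1581.5 CPM at P3), and of 12 amacrine markers 3 rose and 6 fell (1449.6 to 1622.3 CPM at P9, 1819 to 2454 CPM at P3). The bipolar list includes Grik1, itself a receptor gene followed here, and Grm6. All 12 retinal progenitor markers fell (198.2 to 364.5 CPM at P9, 1893.6 to 6573.9 CPM at P3). No gene of these 4 lists was at 0 in all libraries. An amacrine marker was at 0 in every P9 library and a bipolar marker in P3 replicate 1. The part of these lists in the results below was not tested. In such bulk RNA, fewer cells of a type and less RNA per cell cannot be told apart.

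Most receptor genes rose at P9. Of 63 receptor genes that passed the filter on low counts, 42 rose, 7 fell and the other 14 missed an adjusted p of 0.05 (edgeR's quasi-likelihood test). The 49 called genes stand against 51.8% of all genes called in either direction. Among all 18638 genes tested, 26.1% rose and 25.6% fell, against 66.7% and 11.1% of the receptor genes. A rise of at least 2-fold was called for 28 receptor genes and a fall of that size for 4, where 10% and 8.01% of all genes did so. The median log2 fold change (P9 over P3) was 0.72 over the receptor genes and -0.002 over all genes. In 32 receptor genes every P9 library lay above every P3 library, and in 6 every P9 library lay below (16.3% and 15.4% of all genes, 31.7% together). Chrna1 was removed by the filter, at 0.0519 to 1.09 CPM (P9) and 0.0891 to 1.39 CPM (P3). The 3 genes that only resemble receptor names did not pass. Of these, Grin1os averaged 6.00 ± 1.83 CPM at P9 and 5.48 ± 1.61 CPM at P3, and Chrna1os 0.709 ± 0.441 CPM at P9 and 0.85 ± 0.254 CPM at P3 (SD, n = 6 per age).

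The G-protein-coupled receptors and the channels can be counted apart. Among 16 G-protein-coupled receptor genes 13 rose and 0 fell at the adjusted threshold, with a median log2 fold change of 1.20, and neither of the genes with a negative estimate, Gabbr1 (-0.02) and Grm4 (-0.04), fell at an unadjusted p under 0.05 or by DESeq2 or limma-voom. Among 47 channel subunit genes 29 rose and 7 fell, with a median of 0.60. The 7 genes that fell were Chrng, Gabre, Grik3, Gabrq, Chrna3, Grik2 and Grik5. Over all genes tested 26.1% rose and 25.6% fell, and whether the classes differ was not tested.

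**Figure D1:**
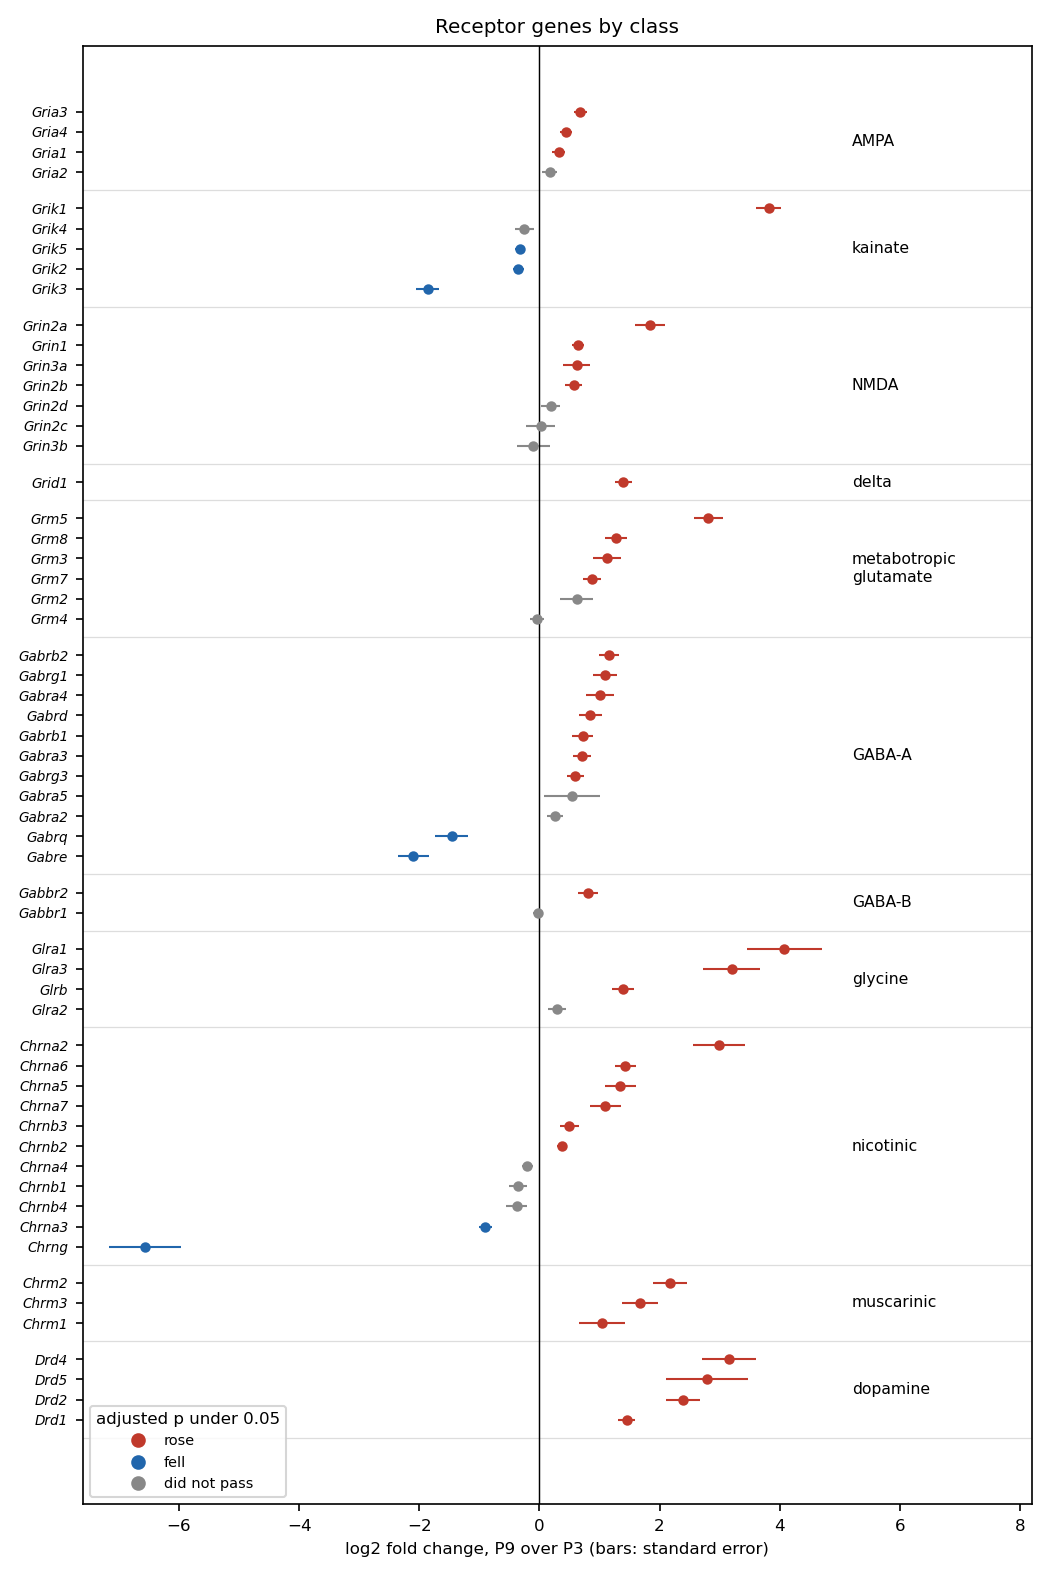
Log2 fold change (P9 over P3) of 58 tested receptor genes, by class, with its standard error as a bar and coloured by the call at an adjusted p of 0.05. The 37 plotted genes that rose lie between 0.32 (Gria1) and 4.08 (Glra1), and Chrng lies at -6.57.

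The promoter windows of the genes with large changes are shown because they differ in base composition and in motifs. The windows come from RefSeq on GRCm38.p6 and reach from 250 bases before the start site to 50 after it. For Drd4 and Gabre that start site lies inside the gene span given below, not at its edge. A window was found for 44 of the 64 receptor genes (the first listed where a gene had several). Shown are 2 genes that rose most and 2 that fell most among called genes with exactly 1 window, and Chrna1, which was added after its window had been seen. The windows are chr8:55940168-55940467 for Glra3, chr7:141291768-141292067 for Drd4, chr1:87205561-87205860 for Chrng, chrX:72274672-72274971 for Gabre and chr2:73580289-73580588 for Chrna1. Gabre and Chrna1 are on the minus strand and the others on the plus strand, and all are written 5′ to 3′. Capitals mark matches, on either strand, of any of 4 motifs that were searched. One is the E-box CAGCTG, which reads the same on both strands. Another is the GC box, spelled GGGCGG. The motif TAATCC, which homeodomain factors of photoreceptors can bind, was searched as well. The last is TATAAA, the core of a TATA box. No motif is a part of another.
Glra3: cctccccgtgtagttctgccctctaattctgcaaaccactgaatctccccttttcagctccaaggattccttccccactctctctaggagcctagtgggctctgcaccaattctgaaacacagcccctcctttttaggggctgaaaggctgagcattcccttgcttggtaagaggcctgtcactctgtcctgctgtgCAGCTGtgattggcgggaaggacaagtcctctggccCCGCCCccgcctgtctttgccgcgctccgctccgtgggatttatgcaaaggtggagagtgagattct
Drd4: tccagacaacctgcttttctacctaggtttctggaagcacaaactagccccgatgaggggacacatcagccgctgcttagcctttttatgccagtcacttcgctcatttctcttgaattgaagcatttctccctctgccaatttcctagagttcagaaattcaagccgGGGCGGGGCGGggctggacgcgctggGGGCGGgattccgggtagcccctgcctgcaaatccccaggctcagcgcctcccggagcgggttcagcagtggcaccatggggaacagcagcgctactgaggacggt
Chrng: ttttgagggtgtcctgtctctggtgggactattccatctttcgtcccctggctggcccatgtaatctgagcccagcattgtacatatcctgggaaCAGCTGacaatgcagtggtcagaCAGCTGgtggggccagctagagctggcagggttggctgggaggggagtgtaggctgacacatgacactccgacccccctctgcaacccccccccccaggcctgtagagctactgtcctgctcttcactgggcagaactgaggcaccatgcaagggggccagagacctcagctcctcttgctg
Gabre: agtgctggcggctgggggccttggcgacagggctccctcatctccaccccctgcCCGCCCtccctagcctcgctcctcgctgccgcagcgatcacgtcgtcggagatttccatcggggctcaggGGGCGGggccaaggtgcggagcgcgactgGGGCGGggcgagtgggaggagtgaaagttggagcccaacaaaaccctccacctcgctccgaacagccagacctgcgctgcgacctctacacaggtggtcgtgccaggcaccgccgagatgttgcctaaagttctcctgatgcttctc
Chrna1: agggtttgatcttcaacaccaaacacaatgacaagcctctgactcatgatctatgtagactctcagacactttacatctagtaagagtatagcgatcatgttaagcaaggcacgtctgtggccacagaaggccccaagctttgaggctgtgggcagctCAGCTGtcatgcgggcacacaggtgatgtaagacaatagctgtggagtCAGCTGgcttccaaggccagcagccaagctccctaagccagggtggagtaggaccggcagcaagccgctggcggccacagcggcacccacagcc
In the Chrng window CAGCTG stands at 155 and at 132 bases before the start site (first base of the match), and CG occurs 2 times. The Chrna1 window also holds CAGCTG 2 times. At least 2 copies were found in 472 of 27025 windows of all genes (1.75%) and in these 2 of 44 receptor windows (4.55%). Of the 44, 30 held GGGCGG (68.2%, against 35.9% of all windows), 4 held CAGCTG (9.09% and 16.1%), 5 held TATAAA (11.4% and 14.2%) and 2 held TAATCC (4.55% and 7.16%). The windows of all genes were taken whatever the counts, while the receptor genes had reached the count minimum. These shares therefore do not compare genes of like expression. In the Drd4 window the GC boxes nearest each other share a base. GGGCGG was present in 17 of 23 windows of genes that rose and in 5 of 7 of genes that fell. The median count of CG in a window was 15 (range 0 to 46) in genes that rose. It was 23 (2 to 50) in genes that fell and 18 (3 to 42) in genes that did not pass. All genes had a median of 7 (0 to 65). A match is a run of letters, not a shown binding site.

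Chrng (ENSMUSG00000026253.14, chromosome 1, 87205811 to 87211835, RefSeq on GRCm38.p6 as for all coordinates here) showed the largest change of all members. It encodes the gamma subunit of the muscle nicotinic receptor, which in skeletal muscle belongs to the fetal form and is replaced by epsilon. The P9 libraries held 0, 13, 5, 0, 6 and 1 counts (replicates 1 to 6), against 219, 559, 408, 218, 213 and 447 counts in the P3 libraries. Every P3 library was thus far above every P9 library. Its level was 0.114 ± 0.133 CPM at P9 and 11.6 ± 5.68 CPM at P3 (SD, n = 6 per age). The fitted log2 fold change was -6.57 ± 0.60 (SE; adjusted p = 6.12e-07). With so few counts at P9 it depends on the prior count, and it was -7.29 without P9 replicate 2. Of the other muscle-type subunit genes, Chrnd had 15, Chrne 89 and Chrna1 162 counts over all 12 libraries. Chrnb1, the muscle-type beta subunit, had 3004 counts, at 6.80 ± 0.722 CPM at P9 and 8.64 ± 1.77 CPM at P3 (SD, n = 6 per age), and did not pass.

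Skeletal muscle markers stood out in P3 replicate 1, where the 10 muscle markers summed to 484.5 CPM, and less in P3 replicate 3 (29.5 CPM). The other P3 libraries held 6.25 to 9.38 CPM and the P9 libraries 3.87 to 6.12 CPM. None of these markers was at 0 in all libraries, but Myh8, the perinatal myosin heavy chain, stood at 195.7 CPM in P3 replicate 1 and at 0 to 0.361 CPM in P3 replicates 2, 4, 5 and 6. Chrng was 7.23 CPM in P3 replicate 1 and 19.9 CPM, its highest value, in P3 replicate 2. The part of muscle RNA in the Chrng values was not tested. Chrna1 was highest in P3 replicate 1 (1.39 CPM). Of the 10 muscle markers 5 were tested, of which 3 fell and 2 did not pass.

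Nicotinic receptor genes changed in both directions. Of the 11 tested nicotinic genes 6 rose, 2 fell and 3 missed the threshold, where 26.1% of all genes tested rose and 25.6% fell. The summed level of the class overlapped between the ages (241.5 to 290.8 CPM at P9 and 212.2 to 273.5 CPM at P3). Chrna3 (ENSMUSG00000032303.7, chromosome 9, 55010117 to 55026562), an alpha subunit of ganglionic receptors, ran from 13.0 to 19.8 CPM (median 15.8) at P9, against 27.5 to 35.7 CPM (median 30.2) at P3. The ranges did not overlap, and the gene fell by 0.90 on the log2 scale (SE 0.11; adjusted p = 9.44e-06). Chrna6 (ENSMUSG00000031491.10, chromosome 8, 27403212 to 27413944), an alpha subunit found in catecholaminergic and visual neurons, ran from 17.9 to 39.6 CPM (median 34.5) at P9, against 10.3 to 14.6 CPM (median 11.8) at P3. All P9 libraries were higher, with P9 replicate 3 the lowest of them (log2 fold change 1.43 ± 0.17, SE; adjusted p = 5.63e-06).

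Chrnb2, the beta subunit that early retinal waves need, ran from 68.1 to 75.7 CPM (median 71.4) at P9, against 48.3 to 62.4 CPM (median 55.8) at P3, 1.30-fold higher without overlap (adjusted p = 0.000364). Chrna2, an alpha subunit that in brain marks sets of interneurons, was low at both ages: 0.901 to 5.18 CPM (median 2.79) at P9, against 0.149 to 0.632 CPM (median 0.326) at P3. All P9 values were above all P3 values (log2 fold change 2.99 ± 0.44, SE; adjusted p = 5.66e-05). The accessory subunit gene Chrna5 rose 2.55-fold, Chrna7, whose product forms receptors by itself, 2.15-fold, and Chrnb3 1.42-fold. For Chrna7 and Chrnb3 the ages overlapped. The estimates of Chrna4 (-0.20), Chrnb1 (-0.35) and Chrnb4 (-0.38) did not pass (adjusted p of 0.0840, 0.0687 and 0.0888). Each passed without some single library: Chrna4 without P3 replicate 1 (adjusted p = 0.0297), Chrnb1 without P3 replicate 5 (0.0145) and Chrnb4 without P3 replicate 1 or 3 or P9 replicate 3 (0.0482, 0.0329 and 0.0373). Without P9 replicates 5 and 6 together Chrnb3 did not pass (adjusted p = 0.106).

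Of nicotinic chaperones and modulators 5 of 8 tested genes rose, 1 fell and 2 missed the threshold. Among all genes tested 26.1% rose and 25.6% fell. Lynx1, a small protein bound to the membrane that dampens nicotinic receptors, averaged 33.9 ± 10.1 CPM at P9 and 6.37 ± 2.06 CPM at P3 (SD, n = 6 per age). Tmem35a and Ric3, which help receptors to assemble, rose 2.51-fold and 1.44-fold. Musk, a kinase of the muscle synapse, was not tested (0.0839 CPM at P9 and 0.139 CPM at P3).

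All 3 muscarinic receptor genes above the count minimum rose, where 26.1% of all genes tested did. Chrm2 (ENSMUSG00000045613.9, chromosome 6, 36387991 to 36528638), a receptor that inhibits adenylyl cyclase, ran from 2.54 to 5.77 CPM (median 4.15) at P9, against 0.678 to 1.26 CPM (median 0.884) at P3. Chrm3, which raises calcium through Gq, ran from 4.32 to 9.15 CPM (median 6.58) at P9, against 1.35 to 3.98 CPM (median 1.5) at P3. The ages did not overlap in either gene, with log2 fold changes of 2.17 ± 0.28 and 1.67 ± 0.30 (SE; adjusted p of 1.68e-05 and 0.000248). Chrm1, likewise coupled to Gq, overlapped: 1.03 to 4.68 CPM (median 2.67) at P9 and 0.775 to 2.43 CPM (median 1.17) at P3 (log2 fold change 1.04 ± 0.38, SE; adjusted p = 0.0307). Chrm1 no longer passed after removal of any of P3 replicates 3, 5 and 6 or P9 replicates 1, 5 and 6 (adjusted p of 0.0650, 0.0611, 0.0635, 0.0536, 0.0600 and 0.0886), or of P3 replicates 4 and 5 or P9 replicates 5 and 6 together (0.0734 and 0.207).

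All 4 dopamine receptor genes above the count minimum rose, where 26.1% of all genes tested did, while Drd3 had 0 counts. For each of the 4 the P9 libraries lay above the P3 libraries, as in 16.3% of all genes tested. Their summed level was 66.6 ± 15.4 CPM at P9 and 16.5 ± 4.06 CPM at P3 (SD, n = 6 per age), 4.05-fold higher. Drd4 (ENSMUSG00000025496.5, chromosome 7, 141291974 to 141296464), the receptor through which dopamine acts on mouse photoreceptors, ran from 2.68 to 24.5 CPM (median 13.1) at P9, against 1.02 to 2.50 CPM (median 1.46) at P3. The P9 libraries were widely spread and P9 replicate 3 came close to the highest P3 value, while the fold change was 8.92 (adjusted p = 3.87e-05). The rod marker sum was also lowest in that library (6985.2 CPM, against 7948.5 to 14598.8 CPM in the other P9 libraries), and the part of rod RNA in the Drd4 values was not tested.

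Drd2 (ENSMUSG00000032259.8, chromosome 9, 49340360 to 49408177), which inhibits adenylyl cyclase and is the autoreceptor of dopamine neurons, ran from 18.3 to 26.5 CPM (median 24.6) at P9, against 2.29 to 7.05 CPM (median 3.93) at P3 (log2 fold change 2.39 ± 0.28, SE; adjusted p = 5.16e-06). Drd1, which stimulates adenylyl cyclase, ran from 21.9 to 33.9 CPM (median 29.2) at P9, against 8.24 to 13.1 CPM (median 10) at P3 (log2 fold change 1.45 ± 0.14, SE; adjusted p = 9.17e-07). In both genes every P9 library lay above every P3 library. Drd5, the other receptor of the stimulating kind, rose at a low level: 0.424 to 1.23 CPM (median 0.945) at P9 and 0 to 0.31 CPM (median 0.136) at P3 (adjusted p = 0.00309). Th, the enzyme that makes dopamine's precursor, was at 0.453 to 1.33 CPM at P9 and 0.198 to 0.921 CPM at P3 and did not pass (adjusted p = 0.283).

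Among GABA-A receptor subunits 10 of 14 rose, 2 fell and 2 did not pass, where 26.1% of all genes tested rose and 25.6% fell. The summed level was 460.6 ± 51.0 CPM at P9 and 240.8 ± 32 CPM at P3 (SD, n = 6 per age). Gabrb2 (ENSMUSG00000007653.12, chromosome 11, 42419515 to 42632591), a beta subunit of many adult receptors, ran from 16.9 to 24.6 CPM (median 19.9) at P9, against 5.95 to 12.2 CPM (median 8.72) at P3. Every P9 library lay above every P3 library (log2 fold change 1.16 ± 0.17, SE; adjusted p = 3.92e-05). Gabrg1, a gamma subunit, ran from 5.04 to 7.83 CPM (median 6.55) at P9, against 1.96 to 3.77 CPM (median 3.1) at P3, again without overlap (log2 fold change 1.10 ± 0.20, SE; adjusted p = 0.000269). Gabrb1, another beta subunit, rose 1.65-fold, and Gabrg3, another gamma subunit, 1.52-fold, both with overlap between the ages. Gabrd, of receptors outside synapses, rose 1.81-fold, likewise with overlap.

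Alpha subunits set much of the drug response of these receptors. Gabra2, abundant in young brain, ran from 53.6 to 76.9 CPM (median 59.3) at P9 and from 38.9 to 73.2 CPM (median 48.1) at P3, with overlap (log2 fold change 0.26 ± 0.13, SE; adjusted p = 0.125). It passed without P3 replicate 5 (adjusted p = 0.00936) and without P3 replicates 4 and 5 together (0.00315). Gabra3 ran from 23.3 to 27.0 CPM (median 26.2) at P9, against 11.6 to 22.7 CPM (median 14.0) at P3, and rose 1.64-fold without overlap. Gabra4 rose 2.01-fold, and Gabra5 did not pass (1.72 ± 0.893 CPM at P9 and 1.17 ± 0.62 CPM at P3; SD, n = 6 per age).

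Both GABA-A genes that fell lie on the X chromosome and encode the rarer epsilon and theta subunits. Gabre (ENSMUSG00000031340.8, chromosome X, 72256926 to 72274828) ran from 1.56 to 3.98 CPM (median 2.66) at P9, against 7.92 to 18.3 CPM (median 10.6) at P3 (log2 fold change -2.10 ± 0.26, SE; adjusted p = 1.12e-05). Gabrq was at 0.893 to 1.27 CPM (median 0.992) at P9, against 1.69 to 4.22 CPM (median 3.02) at P3, and fell by 1.46 on the log2 scale (SE 0.27; adjusted p = 0.000419). In both the P9 libraries lay below all P3 libraries. Gabre was highest in P3 replicates 1 to 3 and Gabrq in P3 replicates 2, 3 and 6.

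GABA-B receptors need a GABA-binding and a G-protein-coupling partner. Gabbr1, the binding partner, ran from 317 to 351.7 CPM (median 333.2) at P9 and from 303.9 to 413 CPM (median 325.7) at P3, with a log2 fold change of -0.02 ± 0.08 (SE; adjusted p = 0.850). Gabbr2 (chromosome 4, 46662318 to 46991714), the coupling partner, ran from 55.9 to 81.7 CPM (median 64.3) at P9, against 23.8 to 55.0 CPM (median 37.0) at P3, and rose 1.75-fold (adjusted p = 0.00113). The highest P3 library of Gabbr2 nearly reached the lowest P9 library.

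Of 4 glycine receptor genes above the count minimum 3 rose and Glra2 did not pass, where 26.1% of all genes tested rose. Glra1 (ENSMUSG00000000263.15, chromosome 11, 55514239 to 55608198), the alpha subunit of adult spinal receptors, ran from 1.72 to 4.25 CPM (median 3.50) at P9, against 0 to 0.632 CPM (median 0.124) at P3 (log2 fold change 4.08 ± 0.63, SE; adjusted p = 8.29e-05). At P3 it rested on few counts, and without P3 replicate 6 the estimate was 5.05. Glra3 (ENSMUSG00000038257.9, chromosome 8, 55940418 to 56130070), another alpha subunit, ran from 7.39 to 14.2 CPM (median 8.62) at P9, against 0.214 to 2.46 CPM (median 0.879) at P3 (log2 fold change 3.20 ± 0.47, SE; adjusted p = 5.42e-05). Glrb, the beta subunit that ties receptors to gephyrin, ran from 21.5 to 37.9 CPM (median 30.1) at P9, against 7.64 to 15.4 CPM (median 12) at P3, and rose 2.61-fold (adjusted p = 1.60e-05). Without P3 replicates 4 and 5 together the Glra3 estimate was 3.98. The ages did not overlap in these 3 genes. Glra2, the alpha subunit of immature receptors in spinal cord, ran from 17.7 to 21.5 CPM (median 18.4) at P9 and from 11.0 to 19.6 CPM (median 15.4) at P3 (log2 fold change 0.29 ± 0.15, SE; adjusted p = 0.126). Without P3 replicates 4 and 5 together it passed (adjusted p = 0.0101).

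Partners of the inhibitory receptors mostly rose as well, where 26.1% of all genes tested rose and 25.6% fell. Of 18 tested genes of inhibitory synapses and GABA receptor transport 12 rose, 2 fell and 4 missed the threshold, with a median log2 fold change of 0.52 (-0.002 over all genes). Slitrk3, an adhesion protein of inhibitory synapses, averaged 30.6 ± 1.46 CPM at P9 and 8.44 ± 1.91 CPM at P3 (SD, n = 6 per age). Gphn, which encodes the scaffold gephyrin, rose 1.57-fold and Trak1, which links cargo to motors, 1.85-fold. Among 19 tested genes of chloride transport and transmitter supply 10 rose, 3 fell and 6 missed the threshold, with Slc17a7, the vesicular glutamate transporter of photoreceptors and bipolar cells, at a 7.15-fold and Slc17a8, another such transporter, at a 4.37-fold rise. Slc12a5 and Slc12a2, the transporters that lower and raise chloride in neurons, rose 3.36-fold and 2.13-fold. The rho subunit genes of GABA receptors and Grm6, which stand outside the rule, rose in 4 of 4 cases.

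Among kainate receptor genes, 1 rose and 3 fell, where 26.1% of all genes tested rose and 25.6% fell. Grik1 (ENSMUSG00000022935.15, chromosome 16, 87895901 to 88290863), a subunit found in OFF bipolar cells, ran from 70.1 to 94.3 CPM (median 79.9) at P9, against 4.11 to 9.53 CPM (median 4.60) at P3 (log2 fold change 3.82 ± 0.21, SE; adjusted p = 1.25e-08). Grik3 (ENSMUSG00000001985.9, chromosome 4, 125490259 to 125714173), a subunit of low glutamate affinity, ran from 28.2 to 59.8 CPM (median 37.6) at P9, against 96.9 to 203.1 CPM (median 131.6) at P3 (log2 fold change -1.86 ± 0.19, SE; adjusted p = 1.97e-06). Neither gene overlapped between the ages, and they went opposite ways. Grik2 ran from 46.6 to 61.1 CPM (median 56.6) at P9, against 61.6 to 81.9 CPM (median 69.0) at P3, and fell by 0.35 on the log2 scale (adjusted p = 0.00484). Grik5, an accessory subunit, ran from 122.9 to 152.1 CPM (median 135.4) at P9 and from 146.3 to 204 CPM (median 163.4) at P3 and fell by 0.32 (adjusted p = 0.00594). In Grik2 the highest P9 library lay just under the lowest P3 library, and in Grik5 the ages overlapped. Grik4, the other accessory subunit, did not pass (adjusted p = 0.197). The summed level of the class was 320.5 ± 9.64 CPM at P9 and 397.5 ± 56.0 CPM at P3 (SD, n = 6 per age), with overlap. The mean of log2(CPM + 1) over its genes was higher at P9 by 0.20, so the direction of the class depends on how it is summarised.

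Of 4 AMPA receptor genes 3 rose, by at most 1.6-fold, and Gria2 did not pass, where 26.1% of all genes tested rose. Gria3 ran from 49.1 to 59.0 CPM (median 55.1) at P9, against 29.1 to 45.6 CPM (median 31.7) at P3, and rose 1.6-fold without overlap (adjusted p = 8.67e-05). Gria4 ran from 92.4 to 136.2 CPM (median 118) at P9 and from 80.6 to 103.5 CPM (median 83.2) at P3, and rose 1.35-fold (adjusted p = 0.00139). Gria1 ran from 49.3 to 64.0 CPM (median 54.7) at P9 and from 38.4 to 57.4 CPM (median 42.2) at P3, and rose 1.24-fold (adjusted p = 0.0203). The ages overlapped for Gria4 and Gria1, and Gria1 did not pass after removal of P9 replicate 6 (adjusted p = 0.0520) or of P9 replicates 5 and 6 together (0.137). Gria2 (ENSMUSG00000033981.14, chromosome 3, 80681450 to 80804227), the subunit that after RNA editing keeps calcium out, ran from 199.4 to 269.4 CPM (median 243.3) at P9 and from 150.6 to 271.3 CPM (median 210.2) at P3 and did not pass (log2 fold change 0.17 ± 0.13, SE; adjusted p = 0.294).

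NMDA receptors hold the obligatory subunit of Grin1 with glutamate-binding subunits of the Grin2 genes. Grin1 (ENSMUSG00000026959.13, chromosome 2, 25291177 to 25319187) ran from 53.7 to 57.9 CPM (median 54.8) at P9, against 27.8 to 44.5 CPM (median 36.1) at P3 (log2 fold change 0.65 ± 0.10, SE; adjusted p = 6.72e-05). Grin2a (ENSMUSG00000059003.12, chromosome 16, 9567901 to 9996083), the subunit of mature synapses in forebrain, ran from 7.26 to 13.3 CPM (median 10.7) at P9, against 1.74 to 5.33 CPM (median 2.51) at P3 (log2 fold change 1.84 ± 0.25, SE; adjusted p = 2.63e-05). Neither overlapped. Grin2b, the subunit of young forebrain synapses, rose too, at 43.4 to 52.4 CPM (median 47.9) at P9 and 24.7 to 44.3 CPM (median 29.4) at P3 (log2 fold change 0.57 ± 0.14, SE; adjusted p = 0.00260). Grin3a, a glycine-binding subunit, ran from 4.61 to 10.6 CPM (median 6.90) at P9 and from 3.98 to 6.84 CPM (median 4.36) at P3 (adjusted p = 0.0297). It no longer passed after removal of P3 replicate 1, 2, 4 or 6 (adjusted p of 0.0567, 0.0611, 0.0535 and 0.0597), P9 replicate 2 or 5 (0.0778 and 0.0802) or P9 replicates 5 and 6 together (0.138). Grin2c, Grin2d and Grin3b did not pass (log2 fold changes of 0.02, 0.19 and -0.10). The Grin1 span holds the whole 7403 bases of Grin1os. The sources name no strand setting for the counting, so reads from this shared stretch could have been counted for either gene.

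Grid1, a relative of the glutamate channels that binds cerebellins at synapses, rose without overlap. It ran from 17.1 to 26.8 CPM (median 22.2) at P9, against 6.77 to 10.4 CPM (median 7.97) at P3 (log2 fold change 1.40 ± 0.14, SE; adjusted p = 1.06e-06). P3 replicate 5 held its highest P3 value.

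Among metabotropic glutamate receptor genes, Grm3, Grm5, Grm7 and Grm8 rose, and Grm2 and Grm4 did not pass. Grm5 (ENSMUSG00000049583.15, chromosome 7, 87583981 to 88135063), coupled to Gq, ran from 12 to 24.7 CPM (median 16.8) at P9, against 1.61 to 3.88 CPM (median 2.19) at P3 (log2 fold change 2.81 ± 0.24, SE; adjusted p = 3.84e-07). Every P9 library lay above every P3 library. Among the genes coupled to inhibitory G proteins, Grm8 ran from 9.12 to 12 CPM (median 9.92) at P9, against 2.85 to 5.76 CPM (median 3.64) at P3, and rose 2.42-fold (adjusted p = 4.03e-05). Grm7, a presynaptic receptor, ran from 39.6 to 55.1 CPM (median 49.4) at P9, against 17 to 32.3 CPM (median 28.8) at P3, and rose 1.82-fold (adjusted p = 0.000258). These, too, did not overlap. Grm3 ran from 4.71 to 7.95 CPM (median 6.13) at P9, against 1.51 to 4.22 CPM (median 2.71) at P3, and rose 2.18-fold (adjusted p = 0.000887). Grm4 did not pass (9.92 ± 0.95 CPM at P9 and 10.2 ± 1.56 CPM at P3; SD, n = 6 per age). Grm2 did not pass either (adjusted p = 0.0690), but it did by DESeq2 (0.0420) and limma-voom (0.0281) and without P3 replicate 4, 5 or both (0.0203, 0.0183 and 0.000401). At P3 it reached 14.9 CPM at most, against a P3 median of 7.81 CPM.

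Partners of the glutamate receptors rose in most cases, where 26.1% of all genes tested rose and 25.6% fell. The auxiliary gene that fell is also counted among the inhibitory partners above. Of 26 auxiliary subunits and binding partners 19 rose, 1 fell and 6 missed the threshold (median log2 fold change 0.82), with Shisa9, an AMPA receptor partner, rising 7.08-fold, Neto1, a kainate receptor partner, 6.21-fold and Frrs1l, which helps AMPA receptors to form, 2.60-fold. Of 26 excitatory scaffold genes 15 rose, 8 fell and 3 missed the threshold (median 0.51). Dlg4, which encodes the scaffold PSD-95, averaged 476.7 ± 81.4 CPM at P9 and 170.3 ± 21.1 CPM at P3 (SD, n = 6 per age). Homer3, a scaffold for metabotropic receptors, averaged 36.9 ± 6.26 CPM at P9 and 82.1 ± 5.14 CPM at P3 and fell, as did the adhesion gene Nlgn1 (38.8 ± 3.64 CPM at P9 and 81.9 ± 13.0 CPM at P3).

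**Figure D2:**
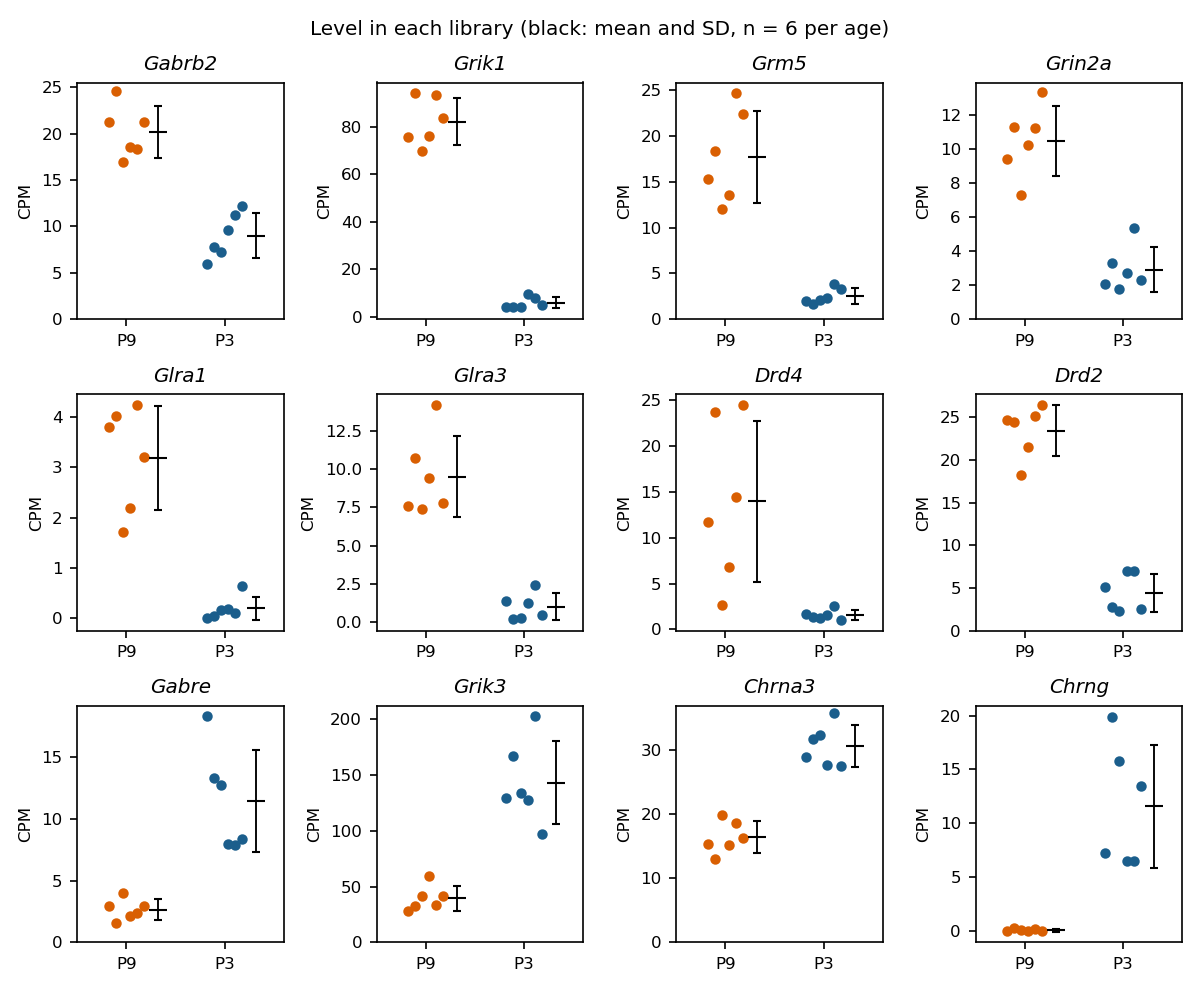
CPM (vertical axes, each with its own scale) of 12 receptor genes in each library, P9 left of P3, with the mean and SD of 6 libraries in black. In all 12 panels the ages do not overlap, and in Drd4 the lowest P9 library (2.68 CPM) comes close to the highest P3 library (2.50 CPM). The 12 genes are a chosen set and do not stand for the rest. Of 63 tested receptor genes 25 overlap between the ages, and 31.7% of all genes do not overlap.

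Chosen pairs of related genes were compared within each library as the log2 ratio of their CPM with a pseudocount of 0.5. Only the change of a ratio between ages can be read, since its level depends on transcript lengths, and no test was made. Glra1 over Glra2 ran from -3.20 to -2.04 at P9, against -5.08 to -4.06 at P3, and Grin2a over Grin2b from -2.68 to -1.76 at P9, against -3.61 to -2.94 at P3. In both pairs every P9 library was higher. The mean shift of Glra1 over Glra2 was 2.12, and 0.94 with a pseudocount of 2. Gria1 over Gria2 (-2.36 to -1.84 at P9, -2.73 to -1.58 at P3), Grm8 over Grm3 (0.47 to 0.99 at P9, -0.14 to 1.08 at P3) and Slc12a5 over Slc12a2 (0.86 to 2.03 at P9, 0.46 to 0.99 at P3) overlapped.

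**Figure D3:**
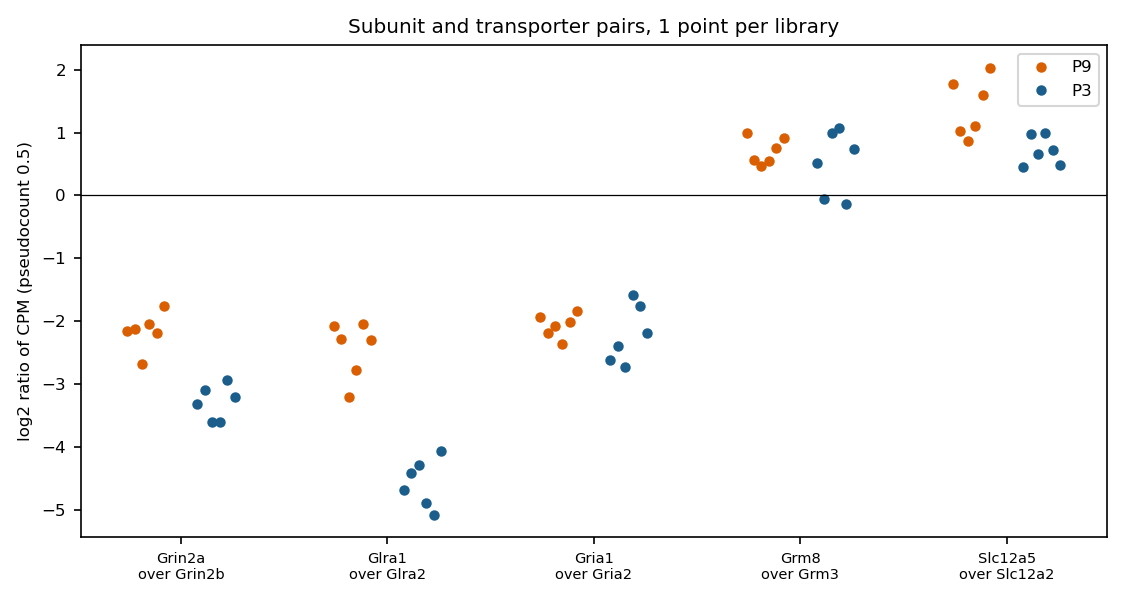
Log2 ratio of CPM (pseudocount 0.5) for 5 gene pairs in each library, P9 points left of P3 points. The P9 and P3 points are apart for Grin2a over Grin2b (means of -2.16 at P9 and -3.29 at P3) and Glra1 over Glra2 (means of -2.45 at P9 and -4.57 at P3), and overlap in Gria1 over Gria2, Grm8 over Grm3 and Slc12a5 over Slc12a2.

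Several receptor genes are neighbours, within 1000000 bases of each other in RefSeq on GRCm38.p6. On chromosome 5 Gabrg1, Gabra4 and Gabrb1 rose, and Gabra2 between them did not pass. On chromosome 7 Gabrg3 rose while Gabra5 beside it did not pass. Neighbours did not always share a direction. On the X chromosome Gabra3 rose while Gabre and Gabrq on either side of it fell, and on chromosome 9 Chrna5 rose (log2 fold change 1.35) while Chrna3 beside it fell (-0.90). The spans of Chrna5 and Chrna3 overlap by 1304 bases and those of Gabra4 and Gabrb1 by 388 bases, so reads from these stretches could have been counted for either gene. On chromosome 8 the adjacent Chrnb3 and Chrna6 both had their lowest P9 value in replicate 3 (21.5 and 17.9 CPM) and their highest in replicate 5 (48.0 and 39.6 CPM).

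**Figure D4:**
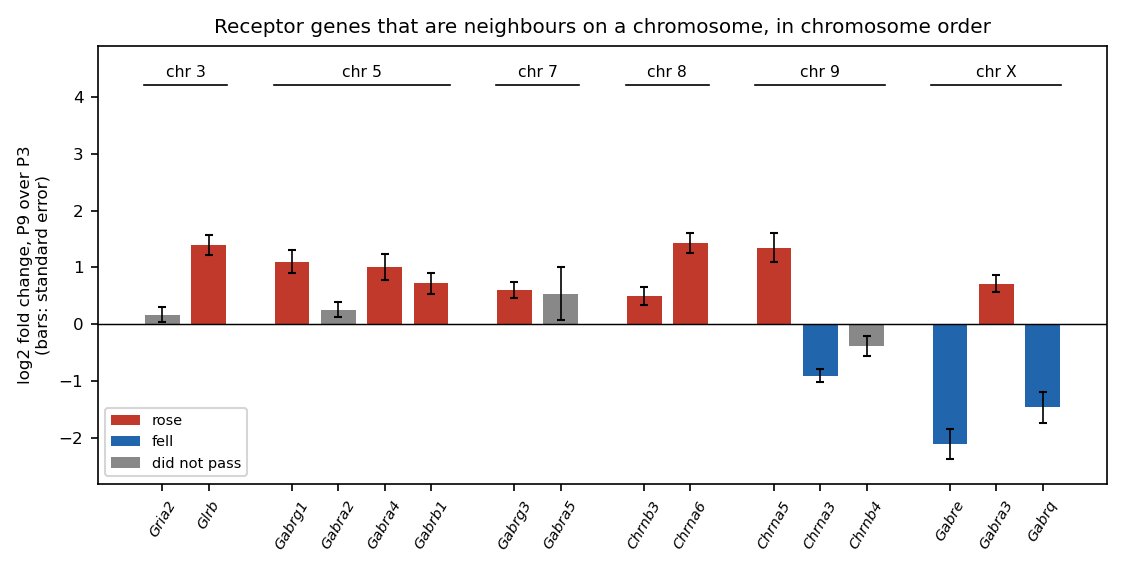
Log2 fold change (P9 over P3, bars, with the standard error as a line) of neighbouring receptor genes in chromosome order, coloured by the call at an adjusted p of 0.05. Neighbours moved in opposite directions on chromosome 9 (Chrna5 and Chrna3) and on the X chromosome (Gabra3 between Gabre and Gabrq).

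The same libraries stood at the edge of their age in many receptor genes. Of the 42 genes that rose, P9 replicate 3 was the lowest P9 library in 26, and P3 replicate 5 was the highest P3 library in 23 and P3 replicate 4 in 10. Some marker sums also stood at the edge in these libraries, though the bipolar sum includes the receptor gene Grik1 itself. The progenitor sum was 364.5 CPM in P9 replicate 3, against 198.2 to 246.9 CPM in the other P9 libraries, and the bipolar sum 2765.7 CPM, against 2988.3 to 3399.7 CPM. In P3 replicates 4 and 5 the progenitor sums were 1893.6 and 1940.4 CPM, against 3734.4 to 6573.9 CPM in the other P3 libraries. The same libraries held the highest P3 sums of the pericyte list (1023.8 and 1159.5 CPM, against 188.1 to 503.9 CPM), the rod list (2609.3 and 2428 CPM, against 1204.8 to 1769.5 CPM) and the bipolar list (1578.2 and 1581.5 CPM, against 1321.7 to 1367.8 CPM). Other sums differed from these. The amacrine sum was highest among the P9 libraries in P9 replicate 3 (1622.3 CPM). At P3 it was lowest in replicate 4 (1819 CPM) and stood at 2123.8 CPM in replicate 5. The pericyte sum of P9 replicate 3 (4414.5 CPM) lay inside the range of the other P9 libraries (2690 to 6081.4 CPM). The part of these cells in the receptor values was not tested. Without P9 replicate 3, 42 receptor genes rose and 8 fell, and without P3 replicates 4 and 5 together 44 rose and 8 fell.

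Markers of further cell types shifted as well, and their part was not tested either. Ganglion cell markers rose in 6 and fell in 2 of 11 (sum 393.4 to 638.2 CPM at P9, 326 to 383.9 CPM at P3), and horizontal cell markers rose in 6 and fell in 1 of 8 (1381.6 to 1616.2 CPM at P9, 786 to 1107.3 CPM at P3). Müller glia markers rose in 6 and fell in 1 of 10 (1584.7 to 2172.9 CPM at P9, 1253.2 to 1764.9 CPM at P3), and astrocyte markers rose in 3 and fell in 1 of 6 (509.4 to 627 CPM at P9, 314.7 to 558.4 CPM at P3). Endothelial markers rose in 4 and fell in 1 of 8, with a lower sum at P9 (637.9 to 718.3 CPM, against 843.1 to 1012.1 CPM at P3). Most of that sum was Kdr, the 1 gene that fell (mean 603.1 CPM at P9 and 926.1 CPM at P3), and the other 7 genes had higher means at P9. All tested smooth muscle markers rose, 5 of 5 (275.3 to 409.6 CPM at P9, 78.4 to 158.9 CPM at P3). No gene of these 6 lists was at 0 in all libraries, but a smooth muscle marker was at 0 in some P3 libraries.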

How the data were processed

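Polysomal RNA of 12 mouse retina samples was sequenced, 6 libraries at P9 and 6 at P3, grouped by the age in the labels. The deposited files hold RSEM expected counts per gene and library, which the authors did not scale to depth. The submitters' processing notes name STAR, RSEM, Trim Galore, FastQC and limma and the build mm10, without versions, roles or annotation. Replicates were numbered in deposition order and pair no libraries. The sample names in the labels of P9 replicates 5 and 6 are crossed against their deposited files, so values given for either of these libraries singly could be exchanged.

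Expected counts were rounded. The filter filterByExpr kept 18638 genes and took out 34452. After TMM scaling, edgeR 4.0.16 (R 4.3.3) compared P9 with P3 by its quasi-likelihood F test, and p-values were adjusted by Benjamini-Hochberg over the 18638 genes (threshold 0.05). The standard error is the size of the log2 fold change over the square root of F. No class or list was tested as a set. The procedure was tested on simulated counts.

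Alternatives tried were library totals, upper-quartile or median-ratio factors for scaling, no filter or a filter at a mean of 10 CPM, limma-voom (limma 3.58.1), DESeq2 1.42.0, a robust fit, a threshold of 0.01, each library left out, 2 pairs of libraries left out, a pseudocount of 2 for ratios and mean log2(CPM + 1) for classes.

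The members and lists were chosen with earlier results of these data known. Values are given, per class, for the member with the highest CPM and up to 4 called members with the smallest adjusted p, for the pairs, and for 3 such genes per partner list. Other members are given mostly by fold, and some members are not reported here. Th, Musk, Myh8, Kdr and the chloride transporter Slc12a2 were named after their values were seen.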

Additional observations from a re-analysis of the deposited data

Results flagged for a closer look

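In 118 groups of 6 libraries (59 receptor genes at each age), 3 values stood apart from the other libraries of their age by Dixon's criterion, where chance gives about 1 in 20 groups. Chrna1 was 1.39 CPM in P3 replicate 1, with the next P3 library at 0.426 CPM. Glra1 was 0.632 CPM in P3 replicate 6, with the next at 0.178 CPM. Gria4 was 103.5 CPM in P3 replicate 5, with the next at 86.0 CPM.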

How the results depend on the processing

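Of 49 called receptor genes 45 kept their direction and call under each of the 23 alternatives in which they were tested. The exceptions are Chrm1, Chrnb3, Gria1 and Grin3a, described above. None of the 49 changed sign. Genes that a filter removed were not judged under that filter. Leaving out 1 library gave 40 to 43 rising and 7 to 9 falling genes. Under a filter at a mean of 10 CPM, 25 rose and 4 fell, since fewer genes were tested. Among genes that did not pass, the sign of the log2 fold change turned for Gabbr1 (0.04 without P3 replicate 2; range over single removals -0.05 to 0.04), Grin2c (-0.08 without P3 replicate 5, -0.09 without P9 replicate 2, -0.02 without P9 replicate 4, -0.15 without P3 replicates 4 and 5 together; up to 0.17 over single removals), Grin3b (0.00 without P3 replicate 2, 0.07 without P3 replicate 6; down to -0.21) and Grm4 (0.00 without P3 replicate 2, 0.03 without P3 replicate 4, 0.00 without P9 replicate 3, 0.04 without P3 replicates 4 and 5 together). With a pseudocount of 2 the shift of the log2 ratio was 0.79 for Grin2a over Grin2b and 0.94 for Glra1 over Glra2. With the mean of log2(CPM + 1) in place of the sum, the class differences were 0.64 (GABA-A), 0.41 (GABA-B), 1.13 (muscarinic) and 0.20 (kainate, where the sum was lower at P9); a sum follows its most abundant genes. No paired analysis was possible because replicates were numbered by deposition order and the labels hold no number shared between ages. Genes near 1 CPM rest on about 26 to 39 counts a library.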
